A study of Mus musculus with 8 samples.

Results

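Caspases are proteases that wait in the cell as inactive precursors and cut other proteins once activated. The 7 caspase genes described here are Casp2, Casp6, Casp8 and Casp9, which serve programmed cell death, and Casp1, Casp4 and Casp12, which are grouped with the inflammatory caspases. They were chosen by family, not by how they moved, and a probe belonged to a member when its transcript accession paired with the member's symbol. These 7 are among 18749 gene symbols on the array. Every member had 1 probe, and all 7 entered the test together with 14130 other genes, 14137 in all.

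Mammary glands (No. 4) at lactation day 1 were compared between wild-type mice (WT) and mice with a knockout (KO) of Th-POK, both of the C57/Bl6 background, with 4 arrays for each genotype and 1 RNA sample on each array. Th-POK is a transcription factor encoded by Zbtb7b, and mice without it are known to be short of CD4 T cells. No promoter or Cre driver is named for the knockout, which came to the study as a gift. All mice were females, and the methods describe them as age matched. Values are log2 signals of one-colour Agilent arrays after quantile normalization, so a difference of 1 is a doubling.

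Apoptotic caspases act in order. Initiators are switched on by large protein platforms, Casp9 by the Apaf1 apoptosome downstream of mitochondria and Casp8 by death receptors through Fadd. Casp2 is switched on by a complex built on Pidd1 and Cradd. Executioners, among them Casp6, act further down. Of the inflammatory caspases, Casp1 is activated by inflammasomes and Casp4 by bacterial lipopolysaccharide in the cytosol. Between them they cut interleukin precursors and gasdermin D, and so promote fever signals and lytic death. These roles are not claimed here for Casp12, which is grouped with them by family. In the mammary gland, caspases are best known from involution after weaning, when the secretory epithelium is removed.

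Zbtb7b itself was checked first. Its log2 signal was 9.90, 10.42, 10.13 and 10.23 on WT arrays and between 1.55 and 1.65 on KO arrays, where it was not well above background on any array. It was at least 81.5-fold lower in KO, taking the lowest measurable signal as the limit (limma, adjusted p = 5.71e-09). Zbtb7b entered the test through the WT arrays alone, so this p-value is no independent sign of a difference. Probes well above background made up 66.8% to 75.3% of each array, and no spot was saturated. The WT arrays shared one slide and the KO arrays a second one, so genotype and slide cannot be told apart in any difference below. The methods call the samples biological replicates and the labels name no dams, so p-values measure the spread between these samples. In whole glands, fewer cells of a type and less RNA per cell cannot be told apart.

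Casp1, Casp4 and Casp12 lie next to each other on chromosome 9, in that order, between Gria4 and Pdgfd. The sequence upstream of the start of each is shown because the differences of these neighbours ran from -0.070 to 1.00, and that of Casp2 because it was the apoptotic caspase that rose. Each sequence is the 250 bases before the annotated start in RefSeq (GRCm38.p6), read 5′ to 3′ on the plus strand, at chr9:5345226-5345475 for Casp12, chr9:5308599-5308848 for Casp4, chr9:5298267-5298516 for Casp1 and chr6:42264735-42264984 for Casp2. Capitals mark the motifs named below.
Casp12: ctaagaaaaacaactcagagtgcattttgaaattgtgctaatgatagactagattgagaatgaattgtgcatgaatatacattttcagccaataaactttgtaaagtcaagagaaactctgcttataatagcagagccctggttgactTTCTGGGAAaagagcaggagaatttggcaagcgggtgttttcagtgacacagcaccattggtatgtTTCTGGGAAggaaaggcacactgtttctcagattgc
Casp4: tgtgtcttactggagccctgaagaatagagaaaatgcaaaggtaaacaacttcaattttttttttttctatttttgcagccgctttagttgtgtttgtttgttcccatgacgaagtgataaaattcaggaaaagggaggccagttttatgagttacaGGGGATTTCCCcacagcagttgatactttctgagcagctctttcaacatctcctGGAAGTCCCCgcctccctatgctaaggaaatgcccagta
Casp1: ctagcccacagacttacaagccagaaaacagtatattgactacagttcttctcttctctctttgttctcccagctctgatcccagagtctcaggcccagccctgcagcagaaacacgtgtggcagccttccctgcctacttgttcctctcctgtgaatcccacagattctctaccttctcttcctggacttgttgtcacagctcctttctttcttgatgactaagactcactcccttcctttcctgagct
Casp2: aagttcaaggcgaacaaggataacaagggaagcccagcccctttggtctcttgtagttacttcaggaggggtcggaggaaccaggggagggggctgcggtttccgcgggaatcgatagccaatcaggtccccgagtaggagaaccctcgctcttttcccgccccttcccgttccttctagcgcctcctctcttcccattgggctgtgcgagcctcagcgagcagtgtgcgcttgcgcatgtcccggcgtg

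The Casp12 window held TTCNNNGAA, the letters that STAT factors recognise, at 102 and 36 bases before the start. STAT5 is the factor through which prolactin acts on the lactating gland, but the letters do not tell STAT factors apart. In the Casp4 window the capitals are matches to the κB consensus, beginning 93, 92 and 39 bases before the start, the first pair overlapping. No match was found in the windows of the other members, and GAAANNGAA, recognised by interferon regulatory factors, was in none of the 7. Both strands were searched. Of all 32817 promoter windows of this length, 7.01% held TTCNNNGAA, 7.25% the κB consensus and 7.12% GAAANNGAA. The motifs were picked after the values and the windows had been seen, 6 spellings were tried in all, and a first, narrower κB spelling matched none of the 7. A match is a run of letters, and binding was not measured.

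Of the 7 caspases, 2 were higher in KO at an adjusted p under 0.05, the apoptotic Casp2 and the inflammatory Casp12, and 0 were lower. Among all genes tested, 7.53% were called higher and 8.96% lower. At an unadjusted p under 0.05, 4 of the 7 differed, all of them higher in KO. Of all genes tested, 36.3% were past that unadjusted limit, and 16.7% were past it and higher in KO. The difference was above 0 for 5 members and below 0 for 2, with a median of 0.24, beside a median of -0.02 over all genes tested. Casp2 was the 1 member whose genotypes did not overlap, where 24.1% of all genes tested did not overlap in either direction.

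**Figure D1:**
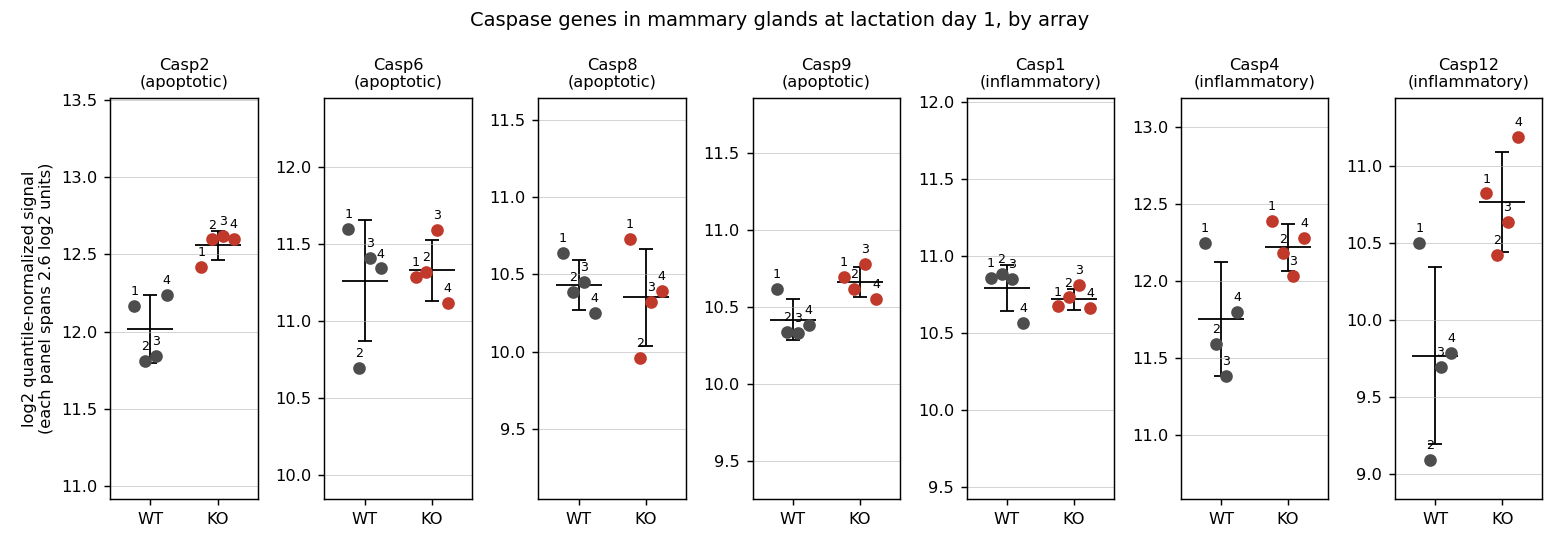
Log2 quantile-normalized signal (y axis, each panel spanning 2.6 log2 units at its own level) of the 7 caspase genes on the 4 WT and 4 KO arrays. Points are arrays with their replicate number, and the line with bars is the mean and SD. The Casp2 groups stand apart, WT1 sits above the lowest KO array for Casp12, and the Casp1 and Casp8 groups lie over each other.

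Casp2, an initiator caspase tied to DNA damage and mitotic stress, was measured at 12.17, 11.81, 11.84 and 12.24 on WT arrays 1 to 4. On KO arrays 1 to 4 it stood at 12.42, 12.60, 12.62 and 12.60. Every KO array was above every WT array, and the KO arrays were closer together. The means were 12.02 ± 0.22 in WT and 12.56 ± 0.094 in KO (SD, n = 4 each). The rise was 0.54 ± 0.13 on the log2 scale (SE), or 1.46-fold, with a 95% interval of 0.25 to 0.84 (limma, adjusted p = 0.0282). The call was lost when WT2, WT3, KO1, KO2 or KO3 was left out, at adjusted p values of 0.0729, 0.0700, 0.0544, 0.0682 and 0.0808 (limma), with differences between 0.48 and 0.59.

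Casp9, the initiator that the apoptosome activates, read 10.62, 10.34, 10.33 and 10.38 in WT and 10.69, 10.62, 10.78 and 10.55 in KO. KO arrays were mostly above WT arrays, but WT1 was above KO4. Its difference of 0.24 ± 0.11 (SE) had a 95% interval of 0.0016 to 0.48 and missed the threshold (limma, adjusted p = 0.136). Casp9 was higher in KO in all 4 pairs of arrays with the same replicate number, by 0.076 to 0.45.

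Casp6, an executioner that cuts nuclear lamins, gave 11.59, 10.698, 11.41 and 11.34 in WT against 11.28, 11.32, 11.59 and 11.12 in KO. WT2 was the lowest of the 8 values and the 2 genotypes overlapped throughout. The difference was 0.066 ± 0.20 (SE), its 95% interval of -0.39 to 0.52 allowed a change in either direction, and its adjusted p was 0.834 (limma).

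Casp8, the death receptor initiator, showed 10.64, 10.39, 10.45 and 10.25 in WT and 10.73, 9.96, 10.32 and 10.40 in KO. KO arrays held both the highest and the lowest of the 8 values. The difference of -0.081 ± 0.17 (SE) had a 95% interval of -0.46 to 0.30 (limma, adjusted p = 0.759).

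Casp12, an inflammatory caspase placed at the endoplasmic reticulum, had the widest difference of the 7. WT arrays read 10.50, 9.09, 9.69 and 9.78, and KO arrays 10.82, 10.42, 10.63 and 11.18. WT1 stood above the other WT arrays and above KO2, and the remaining WT arrays were below every KO array. The means were 9.77 ± 0.58 in WT and 10.76 ± 0.32 in KO (SD, n = 4 each). Casp12 was 1.00 ± 0.29 higher in KO on the log2 scale (SE), or 2.0-fold, with a 95% interval of 0.34 to 1.65 (limma, adjusted p = 0.0482). It was higher in each of the 4 pairs of arrays with the same number, by 0.32 to 1.40. Without WT1 the difference was 1.24 with an adjusted p of 0.0157, whereas leaving out any 1 of the other 7 arrays gave differences of 0.77 to 1.11 and adjusted p values of 0.0692 to 0.104 (limma).

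Casp4, the mouse caspase also called caspase-11 and the sensor of cytosolic lipopolysaccharide, was at 12.25, 11.59, 11.38 and 11.80 in WT. In KO it was at 12.39, 12.18, 12.03 and 12.28. As for Casp12, WT1 lay among the KO arrays and the other WT arrays lay below all of them. The difference was 0.46 ± 0.19 (SE), or 1.38-fold, with a 95% interval of 0.042 to 0.89 and an adjusted p of 0.110 (limma). The adjusted p was 0.0499 once replicate number entered the fit as a block (limma). Without WT1 the difference was 0.63 with an adjusted p of 0.0241 (limma). Under the other 15 of 17 alternatives of processing or of leaving out an array, Casp4 stayed uncalled. Its difference was as low as 0.34 and its adjusted p as high as 0.241 (limma) among them.

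Casp1, which cuts the precursors of IL-1β and IL-18 inside inflammasomes, lies just before Casp4 on the chromosome. Its WT values were 10.86, 10.88, 10.85 and 10.57, and its KO values 10.67, 10.73, 10.81 and 10.66. WT4 was the lowest of the 8 and the other WT arrays were the highest. The difference was -0.070 ± 0.11 (SE) with a 95% interval of -0.31 to 0.17 (limma, adjusted p = 0.662).

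**Figure D2:**
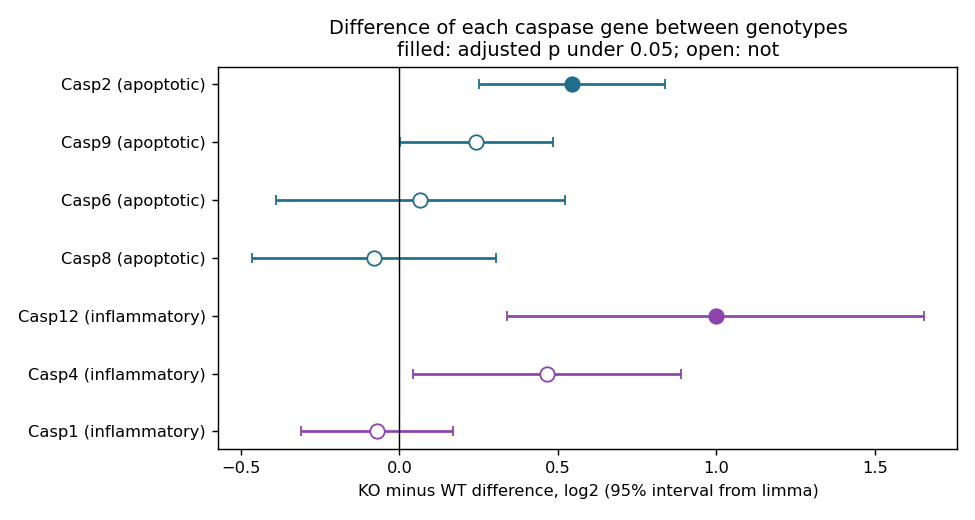
KO minus WT difference in log2 signal (x axis) of each caspase gene, with its 95% interval from limma, for the apoptotic and inflammatory members. Filled points, Casp2 at 0.54 and Casp12 at 1.00, have an adjusted p under 0.05, and the intervals of Casp6, Casp8 and Casp1 cross 0.

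Set side by side, the 4 apoptotic caspases had differences from -0.081 to 0.54 with a median of 0.15, and 1 of the 4 was called. The 3 inflammatory caspases ranged from -0.070 to 1.00 with a median of 0.46, and 1 of the 3 was called. Each class held a member that rose and a member with a difference below 0. Whether the classes differed was not tested. On WT arrays, WT1 was the highest of its genotype for 5 of the 7 members, and it was also the array with the largest share of probes well above background.

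Casp14, a caspase of the skin outside the 7, was well above background on 1 WT array and on no KO array and was not tested.

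The pattern over the 8 arrays most like that of Casp2 was seen in Denn2b (Pearson r = 0.991), Arid2 (0.988) and Paip2 (0.984). For Casp12 the closest were Zfp637 (0.989), Basp1 (0.986) and Top2b (0.980). These are the highest of all genes tested and hold the genotype difference as well as the spread within genotypes. Of the 6 genes, Top2b alone was not called (difference 0.30, limma adjusted p = 0.103). The genes were picked by likeness over both genotypes, so their calls are no independent sign of a difference.

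Genes that switch caspases on, hold them back or are cut by them were taken from 8 lists with 92 genes, of which 83 were tested. Of these, 4 were higher in KO (4.82%) and 7 were lower (8.43%), and 15 did not overlap (18.1%). All of these shares were below the 7.53%, 8.96% and 24.1% of all genes tested. The median difference over the 83 genes was -0.062.

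In the mitochondrial route to Casp9, 1 of 10 genes rose and 2 fell, and the median of the list was -0.33. Apaf1, the scaffold of the apoptosome, read 6.74, 6.35, 6.43 and 6.62 in WT and 6.87, 7.13, 7.13 and 6.95 in KO. Its rise of 0.48 ± 0.12 (SE) had an adjusted p of 0.0334 (limma), with no overlap between genotypes, and it was 0.30 with an adjusted p of 0.0503 when its probes were averaged. Endog, a mitochondrial nuclease, fell by 0.71 (adjusted p = 0.0298, limma), and Diablo, which relieves the block that IAPs put on caspases, fell by 0.38 (adjusted p = 0.0369, limma). All KO arrays were below all WT arrays for both. The scaffold of the platform and a protein released with cytochrome c differed in opposite directions.

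Around Casp8, 0 of 12 genes rose and 1 fell, with a median of -0.10. Fadd, the adaptor that brings Casp8 to death receptors, read 9.20, 9.18, 9.43 and 8.95 in WT and 8.89, 8.50, 8.74 and 8.75 in KO. The groups did not overlap, and Fadd fell by 0.47 ± 0.13 on the log2 scale (SE; limma, adjusted p = 0.0445). Cflar, the Casp8 homologue that blocks it and lies beside it in the genome, had a difference of -0.14 with an adjusted p of 0.413 (limma), and of -0.059 without WT3.

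Around Casp2, none of the 7 genes of its platform and of p53 signalling was called by limma, none was past an unadjusted p of 0.05, and the median was -0.10. Cdkn1a, a p53 target that arrests the cell cycle, had the smallest p, with a difference of -0.88 and an adjusted p of 0.152 (limma). Pidd1, the scaffold on which Casp2 is activated, had a difference of -0.35 and an adjusted p of 0.202 (limma), and of -0.22 without WT2. Of 8 IAPs and other inhibitors tested, limma called none, 1 was past an unadjusted p of 0.05, and the median was 0.028. That 1 was Birc5, a mitotic member of the IAP family, with a difference of -1.70 and an adjusted p of 0.0861 (limma). WT4 read 12.89 for Birc5 and the other WT arrays 9.64 to 10.91, and the difference was -1.06 without WT4 (adjusted p = 0.0767) and -2.14 without WT1, where it passed (adjusted p = 0.0352, limma).

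For the inflammatory caspases, 11 of 16 listed sensors and adaptors could be tested, of inflammasomes and of other innate sensing such as Nod2. None rose and 2 fell, with a median of -0.084. Nod2, a sensor of bacterial cell walls, read 7.96, 9.19, 8.50 and 8.52 in WT and 6.87, 7.26, 6.98 and 7.32 in KO. It fell by 1.43 ± 0.24 on the log2 scale (SE; limma, adjusted p = 0.0132), with every KO array below every WT array. Nlrp3, whose inflammasome activates Casp1, read 5.56, 6.13, 5.70 and 5.93 in WT and 5.55, 5.04, 5.09 and 5.23 in KO. The groups were separate by a narrow margin, and the fall was 0.60 ± 0.16 (SE; limma, adjusted p = 0.0396). Pycard, the adaptor between sensors and Casp1, had a difference of -0.40 with an adjusted p of 0.246 (limma).

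Of 12 genes of the IL-1 family and of pyroptosis, 1 rose and 0 fell, with a median of -0.046. The riser was Il1r1, the receptor through which IL-1 signals, by 0.64 ± 0.16 (SE; limma, adjusted p = 0.0315), with KO arrays at 9.03 to 9.52 above WT arrays at 8.39 to 8.87. Il1b, the substrate of Casp1, had a difference of -0.67 (adjusted p = 0.0847, limma), and of -0.83 without KO4, where it passed (adjusted p = 0.0479, limma). That was the 1 case of 8 in which Il1b passed with an array left out. Over the 8 cases its difference ranged from -0.83 to -0.57, with adjusted p values up to 0.203 (limma). Gsdmd, the pore protein that Casp1 and Casp4 release, had a difference of -0.041 (adjusted p = 0.878, limma).

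Among 13 caspase substrates tested, 2 rose and 1 fell, with a median of 0.11. Gsn, an actin-severing protein, rose by 0.66 ± 0.12 (SE; limma, adjusted p = 0.0164), and Krt18, a keratin of luminal epithelium, by 0.67 ± 0.17 (SE; limma, adjusted p = 0.0349). Parp1, a DNA repair enzyme, fell by 0.42 ± 0.11 (SE; limma, adjusted p = 0.0349). In all 3, the genotypes did not overlap. Of 11 genes of endoplasmic reticulum stress, the compartment linked to Casp12, 0 rose and 1 fell, with a median of 0.0061. That gene was Eif2ak3, the stress sensor also called PERK, which fell by 0.53 ± 0.11 (SE; limma, adjusted p = 0.0196).

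These calls differed in how they held. Of the 11 called genes around the caspases, Nod2 was called under all 17 alternatives and Gsn under all but 1, and the other 9 lost the call under 3 to 10 of them. Leaving out KO3 ended 10 of the 11 calls, KO2 9, KO1 and WT2 8 each, WT3 7, WT4 4, KO4 3 and WT1 2. With the replicate block, Apaf1 (adjusted p = 0.0641), Diablo (0.0555), Fadd (0.0538) and Nlrp3 (0.0682) were no longer called by limma, while Cdkn1a (0.0499) and Il1b (0.0492) passed. Nlrp3, a dim probe, had a difference of -0.23 with an adjusted p of 0.139 (limma) after normexp background correction. Direction was the same throughout for the 11 genes.

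**Figure D3:**
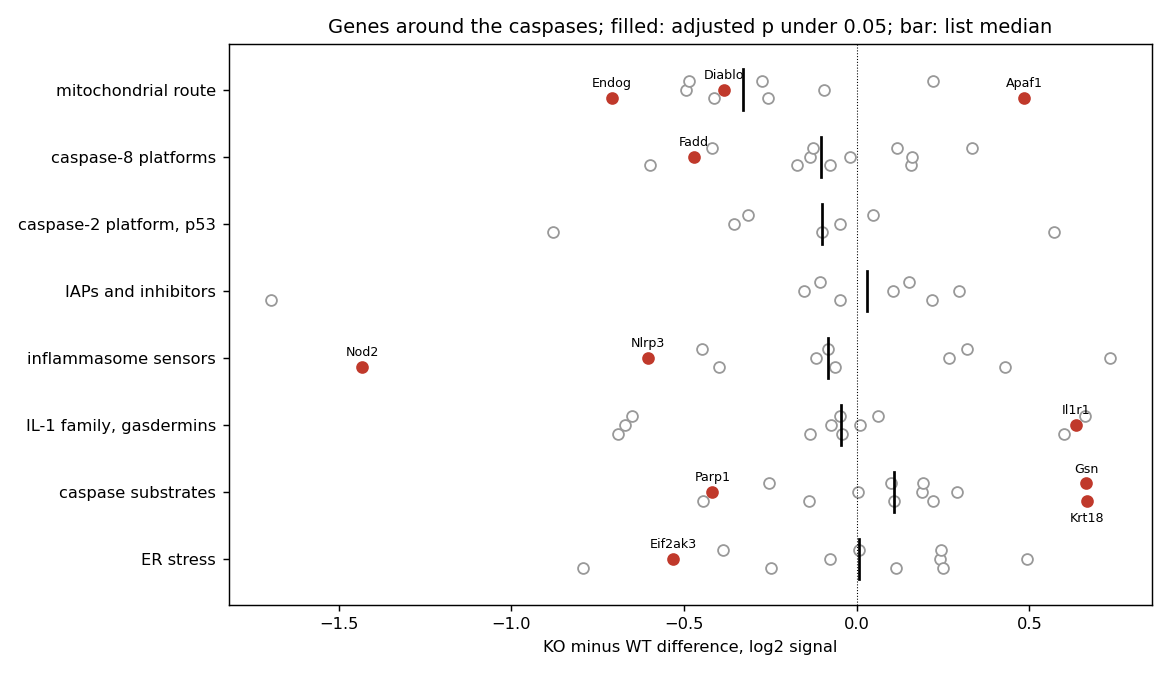
KO minus WT difference in log2 signal (x axis) of every tested gene in the 8 lists around the caspases (rows). Filled points have an adjusted p under 0.05 and are named, and the bar is the median of the list. The medians lie close to 0 except for the mitochondrial route at -0.33, and each list holds genes on both sides of 0.

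Inflammatory caspases are made by myeloid cells as well as epithelium, so the marker lists are given beside them. The shares over all genes tested were 7.53% called higher, 8.96% called lower and 36.3% at an unadjusted p under 0.05 (limma). Genotypes did not overlap for 24.1%. Of 12 neutrophil genes listed, 8 were tested. Of these, 4 were past an unadjusted p of 0.05 (limma) and 3 were called higher in KO. Camp and Ngp, granule genes, were well above background on all 4 KO arrays and on no WT array, so they entered the test through the KO arrays alone and their calls are no independent sign of a difference. The other called gene was Ltf, which the lactating epithelium also makes. The summed signal of the list was 16.04 to 16.62 in WT and 17.37 to 18.05 in KO on the log2 scale, most of it from Ltf. The 5 tested genes that were not called had differences of 2.19 (S100a9), 1.09 (Retnlg), 0.49 (S100a8), 0.24 (Mpo) and 0.080 (Csf3r). Of these, S100a9 did not overlap and came closest to the threshold (limma, adjusted p = 0.0566). Elane, Cxcr2 and Mmp8 were too dim to test, and Ly6g had no probe with its symbol. None of 11 macrophage genes was called by limma, none was past an unadjusted p of 0.05, and their summed signal was 14.59 to 16.42 in WT and 15.17 to 17.05 in KO, led by Cd14 (mean 14.48 in WT and 15.86 in KO, limma adjusted p = 0.203). Of 8 T cell genes 2 were lower (Cd3e and Cd4), and 2 were past an unadjusted p of 0.05 (limma). Of 4 B cell genes 1 was higher (Cd79b, by 1.05), and 2 were past an unadjusted p of 0.05 (limma). Of 6 endothelial genes none was called (1 at an unadjusted p under 0.05, limma). Cd79a, the partner of Cd79b in the B cell receptor, had a difference of -0.72 with no overlap (limma, adjusted p = 0.0511). It was well above background on 4 WT arrays and 1 KO array. Cd79a thus entered the test through the WT arrays alone, and its values are no independent sign of a difference.

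Of 10 luminal genes 3 were called higher (Cdh1, Krt18 and Epcam) and 1 lower (Muc1), and 6 were past an unadjusted p of 0.05 (limma). Of 8 basal genes none was called (1 at an unadjusted p under 0.05, limma). Of 8 adipocyte genes 2 were called higher (Cfd and Plin1), and 3 were past an unadjusted p of 0.05 (limma). The summed luminal signal was 19.68 to 19.76 in WT and 19.78 to 19.84 in KO. Most of it came from Wap (mean 18.39 in WT and 18.47 in KO) and Csn2 (17.76 and 17.77). Neither was called (limma, adjusted p = 0.557 and 0.939). Of the 10 luminal differences, 7 were above 0 and 3 below. The part of any of these cell types in the caspase differences was not tested.

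The 2 calls among the caspases lay near the threshold. Over 9 other ways of processing the same 8 arrays, Casp2 stayed below 0.05 in all 9, with adjusted p values from 0.0200 to 0.0470, and Casp12 in 7 of the 9, from 0.0288 to 0.0998. When 1 array was left out, Casp2 stayed called in 3 of 8 cases and Casp12 in 1 of 8. The direction of both was the same in all 17 cases.

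**Figure D4:**
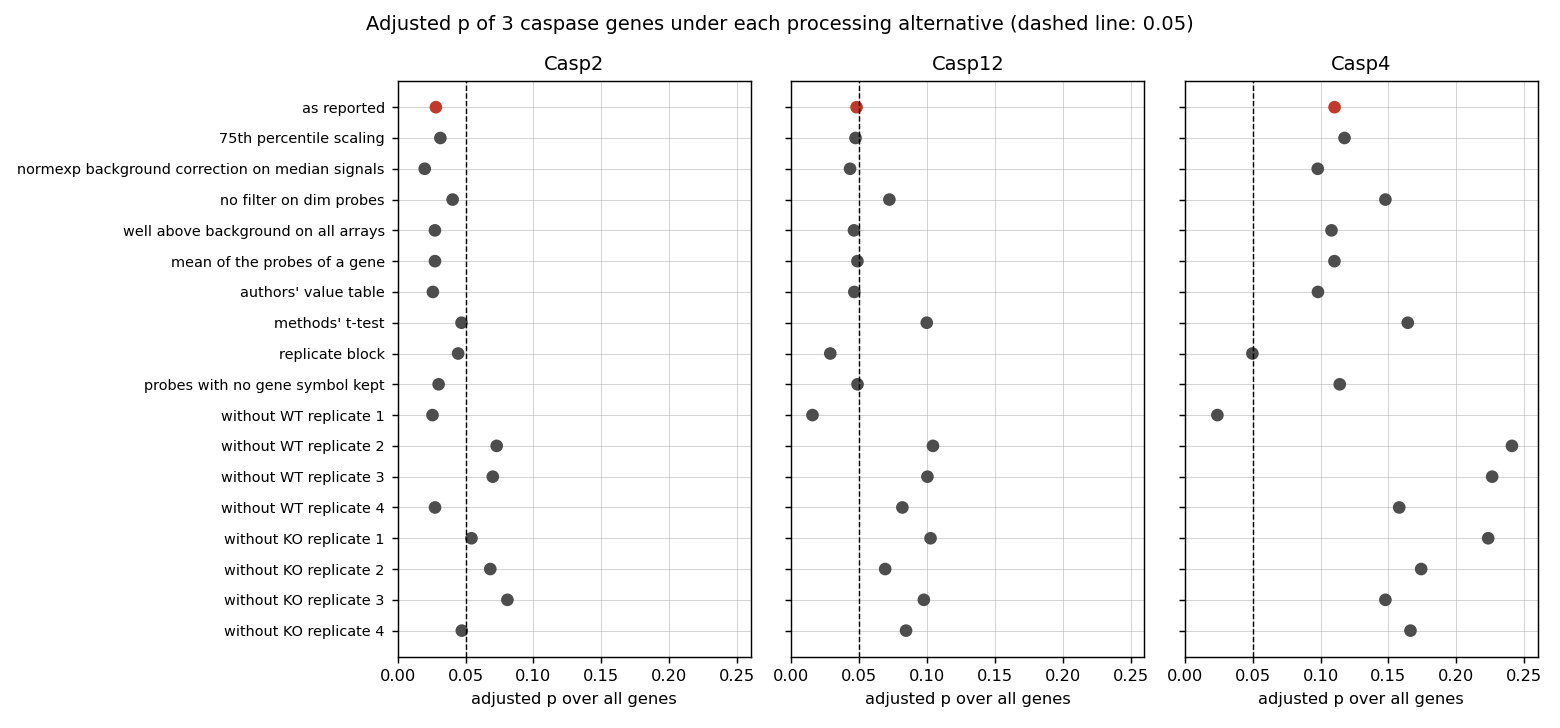
Adjusted p over all genes (x axis) of Casp2, Casp12 and Casp4 as reported and under 17 alternatives (rows), with a dashed line at 0.05. Casp2 lies over 0.05, and so is not called, when WT2, WT3, KO1, KO2 or KO3 is left out. Casp12 lies over 0.05 when any array but WT1 is left out. It also does so under the methods' t-test (0.0998) and when dim probes are kept (limma, 0.0723). Casp4 falls under 0.05 with the replicate block and without WT1.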

How the data were processed

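RNA of 4 WT and 4 KO mammary gland samples was measured on one-colour Agilent arrays, 1 sample per array, grouped by the labels. As deposited, the scanner output holds intensity values that Feature Extraction (10.7.3.1 per the file headers, 10.7 in the submitters' processing notes) had background-subtracted. A table of quantile-normalized log2 values made by the authors in GeneSpring served as an alternative only. Its columns correlated with their own arrays at r above 0.99 and had medians of 6.32, and whether other steps were applied to it stays unknown. The headers name build mm9, so the gene table, of GRCm38.p6, gave symbols and gene order only. Upstream sequences are RefSeq's, and all 7 members matched.

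Control spots and outlier spots (64 to 100 per array) were left out, and log2 intensities were quantile-normalized. Spots were averaged to 41174 probes, of which 27479 matched a symbol. Probes entered when well above background on all 4 arrays of a genotype, and the brightest represented its gene. Genes were compared with limma 3.58.1 in R 4.3.3, two-sided, with Benjamini-Hochberg adjustment over 14137 genes, and called at an adjusted p under 0.05. The code was tested on simulated data. The number of arrays limits the precision.

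The members and gene lists were chosen with earlier results of these data known. Named are the members, per list the called genes (at most 4, or else the smallest p), genes that activate or block a member, and the 3 genes most like Casp2 and Casp12. Other genes, such as Il1b, Gsdmd and the markers, were named after their values had been seen. Some genes of the lists are not reported here. Replicate numbers occur in both genotypes, and the methods do not say what a set shares. Deviations of same-numbered WT and KO arrays from their genotype means correlated at 0.16 to 0.30. On that ground the numbers were taken as pairs, and the paired fit is given where it changes a call. The mean of other pairs, -0.079, adds no support, because centring each genotype ties it to the same-number values. Whether the numbers mark true pairs stays unknown. Tried besides were 75th percentile scaling, normexp, 2 other filters, averaged probes, the authors' table, the methods' t-test, probes without a symbol, and leaving out each array.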

Additional observations from a re-analysis of the deposited data

Results flagged for a closer look

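In 14 groups of 4 arrays (7 caspases in 2 genotypes), 2 held an array far from the other 3 by Dixon's criterion; chance sets apart about 1 in 20 groups. For Casp2, KO1 read 12.42 where the other KO arrays read 12.60 to 12.62. For Casp1, WT4 read 10.57 where the other WT arrays read 10.85 to 10.88.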

How the results depend on the processing

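Each caspase difference was recomputed under 17 alternatives, 8 of which leave out 1 array. Casp1 and Casp9 kept their direction and stayed uncalled in all 17. With no filter on dim probes Casp12 was 1.00 with an adjusted p of 0.0723, and by the methods' t-test 1.00 with 0.0998 (limma and t-test, Benjamini-Hochberg). With the replicate number as a block, Casp4 was 0.46 and passed (limma, adjusted p = 0.0499), and this block changed no other caspase call. With 1 array left out, Casp2 ranged from 0.48 to 0.62, Casp12 from 0.77 to 1.24 and Casp4 from 0.34 to 0.63. Casp6 ranged from -0.12 to 0.18, turning to -0.12 without WT2 and -0.022 without KO3. Casp8 ranged from -0.21 to 0.050, turning to 0.050 without KO2. Gsdmd ranged from -0.14 to 0.071, turning to 0.014 without WT2, 0.020 without WT3 and 0.071 without KO4.

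The caspases called numbered 2 as reported, 1 with no filter, 1 by the t-test, 3 with the replicate block, and 0 to 3 with 1 array left out. Genes called numbered 2331 as reported, 1389 by the t-test, 2762 with the block, 3225 with probes of no symbol kept, and 515 to 3070 with 1 array left out. The 11 called genes of the lists around the caspases kept their call in 119 of 187 combinations of gene and alternative, and none changed direction. Normexp was run on median signals, chosen after the files were seen, because they hold no mean signal. The slide as a block was not run, since each slide holds 1 genotype. The cause of these shifts was not tested, though leaving out an array also leaves fewer samples.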
